A study of Mus musculus with 12 samples.

Results

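The genes described here encode the subunits of the mitochondrial respiratory chain and ATP synthase, and they are split between the nuclear and the mitochondrial genome. Members were taken by gene symbol: Nduf symbols of the A, B, C, S and V series for complex I, Sdha to Sdhd for complex II, Uqcr symbols for complex III, Cox4 to Cox8 symbols for complex IV, Atp5 symbols for complex V, and the 13 mRNAs of mitochondrial DNA, leaving out 8 pseudogene symbols. This gave 96 of the 25208 genes in the table, 83 nuclear and 13 mitochondrial. The mitochondrial members hold 7 subunits of complex I, 1 of complex III, 3 of complex IV and 2 of complex V. The nuclear members hold 41 of complex I, 4 of complex II, 8 of complex III, 13 of complex IV and 17 of complex V. Complexes were assigned by symbol alone, here and below, which need not match where each product sits, as for Ndufa4. RNA was sequenced from mpkCCDc11 cells, an immortalised mouse line of the kidney's cortical collecting duct, in 4 groups of 3 libraries. All groups received 50 nM siRNA, either a control siRNA or one against Ctnnb1, the gene of β-catenin. Every group spent 4 days on permeable supports and 24 h free of serum and hormones. Vehicle or 1 nM dDAVP, which activates the V2 type of vasopressin receptor, was then added basolaterally for 24 h. The labels do not say that the libraries of a group came from separate cultures, so the p-values measure the spread between these libraries, which may be technical, and all values belong to a single cell line.

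Complexes I and II pass electrons from NADH and succinate to coenzyme Q. Complex III passes them to cytochrome c and complex IV to oxygen, while complexes I, III and IV pump protons that complex V, the ATP synthase, uses to make ATP. Mitochondrial DNA is transcribed from both strands into long precursors that are cut at their tRNAs, so its mRNAs arise together and differ later largely by stability. Nuclear subunits are transcribed singly, and NRF1, GABPA (also called NRF2), YY1 and the oestrogen-related receptor ESRRA, with the coactivator PGC-1α, are known regulators of many of them. Collecting duct principal cells spend ATP on sodium and potassium transport, and vasopressin acts on them through cyclic AMP to raise the water channel Aqp2.

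Libraries held 32997720 to 48935473 counted reads, and 16508 genes holding 99.968% of them passed the filter on low counts. Among the members, 79 nuclear and all 13 mitochondrial genes passed. The 4 nuclear members that did not were Ndufa4l2, Ndufa11b, Cox6a2 and Ndufs6b, with 12, 10, 2 and 1 reads over all 12 libraries. Ctnnb1 stood at 745 to 811 CPM (counts per 10⁶ reads, scaled between libraries by TMM) with control siRNA and at 306 to 342 CPM with Ctnnb1 siRNA, so the knockdown was visible in every library. Aqp2 stood at 0 to 0.135 CPM in the 6 vehicle libraries and at 3.26 to 7.69 CPM in the 6 dDAVP libraries. Markers of collecting duct epithelium summed to 3717 to 4798 CPM and those of principal cells to 149 to 213 CPM, against 71.0 to 96.4 CPM for the proximal tubule, 34.5 to 54.4 for podocytes (from Podxl alone, lower in each dDAVP group than in its vehicle group without overlap), 24.7 to 31.1 for leukocytes, 8.92 to 25.7 for intercalated cells, 1.64 to 2.77 for fibroblasts, 0.373 to 1.05 for endothelium and 0 to 0.280 CPM for the thick ascending limb and distal convoluted tubule. Replicate 3 of the Ctnnb1 siRNA and dDAVP group stood apart from the other libraries of its group: the chi-square of its counts per degree of freedom was 42.8 and 69.4 against replicates 1 and 2, which differed from each other by 13.2 on the same scale. Where leaving out this library added a call among the members, that call is given. Directions that turned without it are given for some members only.

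The mitochondrial mRNAs lie end to end, and some of them overlap, which limits how their reads can be told apart. ATP8 and ATP6, membrane subunits of complex V, share 43 bases on the same strand. ND6, a membrane subunit of complex I, is the only mRNA read from the opposite strand, and its 3' end faces the last 14 bases of ND5. The pair of sequences below is shown because they mark where the reads of neighbouring members meet. They come from the GENCODE M21 transcripts of GRCm38, 5′ to 3′ in the direction of each gene. ATP8 is whole, at chrM:7766-7969 on the plus strand, with the part it shares with ATP6 in capitals. For ND6 the last 60 bases are given, at chrM:13552-13611 on the minus strand, with the part that faces ND5 in capitals.
ATP8: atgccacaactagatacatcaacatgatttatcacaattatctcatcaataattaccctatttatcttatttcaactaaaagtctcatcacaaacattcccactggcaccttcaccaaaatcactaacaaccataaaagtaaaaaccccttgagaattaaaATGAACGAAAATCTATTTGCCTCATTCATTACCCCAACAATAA
ND6: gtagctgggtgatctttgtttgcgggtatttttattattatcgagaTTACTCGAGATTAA

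Nuclear DNA also holds near copies of mitochondrial genes, and blastn against the annotated nuclear transcripts was used to see which members have them. At 99% identity or more, nuclear transcripts covered 99.9% of COX3, 99.6% of COX2, 99.6% of ATP6, 99.1% of ND3, 99% of ND4L, 63.6% of ND4, 31.3% of COX1 and 21.1% of ATP8. No base of ND1, ND2, ND5, ND6 or CYTB was covered at that identity. Reads of the first 8 genes could therefore have been divided between a mitochondrial row and a nuclear one, and their levels are uncertain to that extent. At 90% identity or more, coverage was 100% for ND6, 99.8% for CYTB, 60% for ND5 and 49.1% for ND2, and still 0% for ND1.

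Levels per length, given as TPM (length-scaled transcript abundance) in the authors' deposited table, spanned a wide range among the mitochondrial genes. COX1, the catalytic core of complex IV, was the highest member at 11860 ± 767 TPM (SD over 12 libraries). COX3 followed at 5089 ± 447 and COX2 at 2439 ± 226, and the ranges of these 3 genes did not overlap with each other or with any other mitochondrial gene. ATP6 at 784 ± 139 TPM, ND1 at 638 ± 121, ND3 at 635 ± 88.1, CYTB at 485 ± 106 and ATP8 at 459 ± 101 formed a middle group in which each range overlapped the next. ND5 at 137 ± 24.5, ND4 at 113 ± 31.8, ND2 at 57.0 ± 16.9 and ND6 at 47.5 ± 9.54 TPM formed a lower group, again with overlapping neighbours. ND4L, the small membrane subunit that shares an mRNA with ND4, was lowest at 17.1 ± 4.10 TPM. The mean of COX1 was 2.33 times that of COX3, 18.6 times that of ND1 and 693 times that of ND4L. The 7 complex I genes, whose products join in a single membrane arm, ranged from 17.1 to 638 TPM. ND4L and ND4 stood at 17.1 and 113 TPM although they share an mRNA. The ND4L value, and the 693 taken from it, need not reflect its true level.

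Median levels of nuclear members differed less between complexes than those of mitochondrial members. The median was 124 TPM for complex I, 131 for complex II, 212 for complex III, 357 for complex IV and 512 TPM for complex V, against 113 TPM for the mitochondrial members of complex I and 5089 TPM for those of complex IV. The highest and lowest members were Ndufa4 at 676 and Ndufs6b at 0.00750 TPM in the complex I symbols and, in complex II, Sdhd at 169.9 and Sdha at 104. In complex III they were Uqcr11 at 476 and Uqcrq at 43.0 TPM. In complex IV they were Cox4i1 at 1012 and the muscle isoform Cox6a2 at 0.0100 TPM. In complex V they were Atp5b, the catalytic β subunit, at 1562 and Atp5d, the δ subunit of the rotor stalk, at 179 TPM. Summed over members, the nuclear complex IV symbols came to 4989 TPM against 19387 TPM for the 3 mitochondrial mRNAs of that complex. For the complex I symbols, Ndufa4 included, the nuclear sum of 6266 TPM stood above the mitochondrial sum of 1643 TPM.

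**Figure D1:**
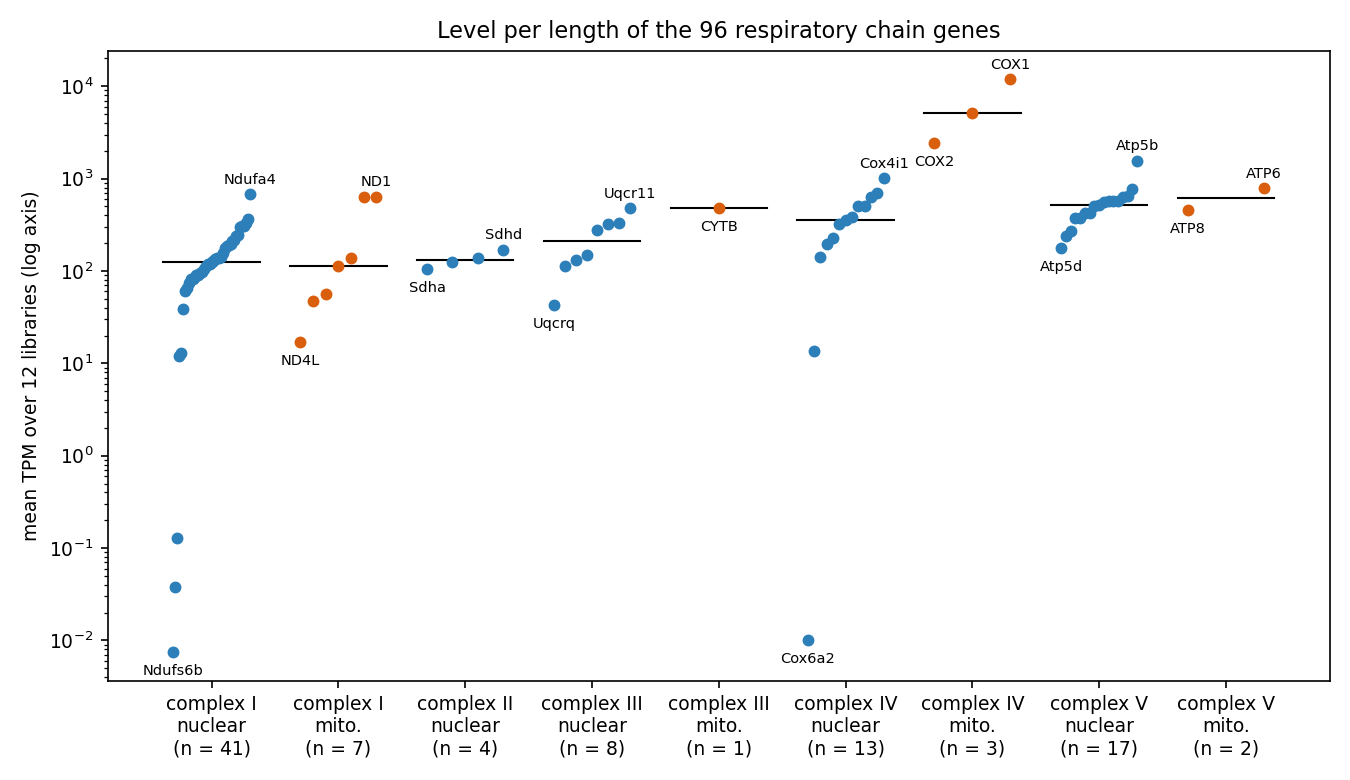
Mean TPM over the 12 libraries (log axis) of each of the 96 members, by complex and genome; blue points are nuclear and orange points mitochondrial genes, black lines are medians, and the highest and lowest member of each column is named. COX1, COX3 and COX2 lie above every nuclear member, from 2439 to 11860 TPM, whereas the mitochondrial complex I genes spread from 17.1 to 638 TPM.

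Subunits with tissue isoforms were present as their common form. Cox4i1, Cox6b1, Cox7b and Cox8a were the members analysed from their isoform sets, at means of 1012, 511, 142 and 632 TPM. Cox6a1 held 99.998% of the TPM of the Cox6a pair and Ndufa4 99.994% of the Ndufa4 and Ndufa4l2 pair. Cox7a1, the muscle isoform, was detected at 9.47 to 16.4 TPM, or 2.41% of its set, beside Cox7a2 at 209 to 240.0 TPM and Cox7a2l, a factor for joining complexes into supercomplexes and not a common subunit, at 291 to 355 TPM. The 3 genes Atp5g1, Atp5g2 and Atp5g3 encode the same mature c-ring subunit of complex V. Atp5g2 held 54.9% ± 0.295 (SD, n = 3) of their TPM in control siRNA and vehicle, 52.1% ± 0.493 in control siRNA and dDAVP, 55.3% ± 0.691 in Ctnnb1 siRNA and vehicle and 54.1% ± 0.880 in Ctnnb1 siRNA and dDAVP. The share of Atp5g1 in the same order was 18.1% ± 0.563, 20.7% ± 0.936, 18.6% ± 0.699 and 19.7% ± 0.776. Atp5g2 was the main c-ring gene in each group. With either siRNA its mean share was lower and that of Atp5g1 higher under dDAVP than under vehicle, by more than the SD of either group. The shift was larger with control siRNA, and these shares were not tested.

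Promoter windows were examined for the motifs of the known regulators. RefSeq windows on GRCm38.p6, from 250 bases before to 50 after a start, were found for 66 of the 83 nuclear members, giving 71 windows of 300 bases. Each motif was searched on both strands as exact letters. The NRF1 core GCATGCGC was in 14.1% of the members' windows and 2.71% of all 32851 windows, and the full NRF1 site, the same letters with GC before them, in 7.04% and 0.971%. The GABPA motif CCGGAAG was in 23.9% against 8.86%, and the YY1 motif AAGATGGC in 14.1% against 2.75%. The ESRRA site TCAAGGTCA was in 2.82% against 0.423%, and its core AAGGTCA, contained in the full site, in 11.3% against 4.72%. A match is a run of letters, not a shown binding site, and windows without one may hold other forms. Windows of 3 members named in the comparisons below are printed with the matches in capitals. They show GABPA letters near the starts of subunits of complexes III, IV and V, and NRF1 and ESRRA letters in Atp5k only. Atp5k, a small subunit of complex V, at chr5:108434350-108434649 on the minus strand, holds the full NRF1 site 50 bases before the start, GABPA letters 12 bases after it and the ESRRA core 23 bases after it. Cox8a, a small subunit of complex IV, at chr19:7217567-7217866 on the minus strand, holds GABPA letters at 5 bases before and 32 bases after the start. Uqcrh, the hinge protein of complex III, at chr4:116075021-116075320 on the minus strand, holds 1 GABPA match. The windows run 5′ to 3′ in the direction of the gene.
Atp5k: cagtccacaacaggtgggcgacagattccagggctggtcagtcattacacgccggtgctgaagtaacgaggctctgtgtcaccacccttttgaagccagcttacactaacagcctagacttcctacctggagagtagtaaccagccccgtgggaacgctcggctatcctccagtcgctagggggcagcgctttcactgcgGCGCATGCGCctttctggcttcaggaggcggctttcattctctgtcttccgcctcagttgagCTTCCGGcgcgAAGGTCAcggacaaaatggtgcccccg
Cox8a: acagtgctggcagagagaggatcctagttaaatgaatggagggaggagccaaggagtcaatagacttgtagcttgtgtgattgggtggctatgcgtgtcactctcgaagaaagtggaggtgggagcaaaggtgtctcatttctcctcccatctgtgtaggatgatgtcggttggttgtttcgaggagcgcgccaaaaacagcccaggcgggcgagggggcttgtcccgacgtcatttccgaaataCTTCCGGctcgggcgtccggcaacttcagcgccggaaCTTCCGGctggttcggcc
Uqcrh: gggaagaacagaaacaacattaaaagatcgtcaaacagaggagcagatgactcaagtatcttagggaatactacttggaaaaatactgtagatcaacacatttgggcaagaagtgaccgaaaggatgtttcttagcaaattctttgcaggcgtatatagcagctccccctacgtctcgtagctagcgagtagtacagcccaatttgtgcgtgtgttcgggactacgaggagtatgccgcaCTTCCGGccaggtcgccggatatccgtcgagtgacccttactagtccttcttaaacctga

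Pooled over the 4 groups, mitochondrial mRNAs varied more between libraries of a group than nuclear subunits, but not all of them did. The median within-group SD of log2 CPM was 0.22 over the 13 mitochondrial members and 0.10 over the 79 nuclear ones. It was 0.09 over the 9911 tested genes with a mean of at least 10 CPM. COX1 was the steadiest mitochondrial mRNA with an SD of 0.05, and COX2 and COX3 stood at 0.10 each. The other 10 ranged from 0.17 in ND3 to 0.36 in ND2. By the median deviation of a library from its group, the vehicle groups did not show the excess. In control siRNA and vehicle it was -0.03, 0.04 and -0.03 for mitochondrial and 0.07, -0.02 and -0.04 for nuclear members. In Ctnnb1 siRNA and vehicle it was -0.02, 0.02 and 0.01 against -0.02, -0.01 and 0.03. In Ctnnb1 siRNA and dDAVP it was -0.06, -0.30 and 0.35 against 0.02, 0.12 and -0.13. COX1 alone held 65.8% to 71.9% of the mitochondrial mRNA reads of a library.

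The share of reads of both genomes is given by library because in some libraries, though not in all, they deviated in opposite directions. Mitochondrial mRNAs took 1.33%, 1.31% and 1.35% of reads in control siRNA and vehicle, 1.40%, 1.37% and 1.37% in control siRNA and dDAVP, 1.31%, 1.29% and 1.36% in Ctnnb1 siRNA and vehicle, and 1.29%, 1.29% and 1.46% in Ctnnb1 siRNA and dDAVP. Nuclear members in the same order took 1.02%, 0.975% and 0.971%, then 0.917%, 1.02% and 0.981%, then 0.992%, 0.987% and 1.01%, then 1.03%, 1.09% and 0.919%. Within the Ctnnb1 siRNA and dDAVP group, replicate 3 had the highest mitochondrial share of all libraries with the second lowest nuclear share, and replicate 2 the highest nuclear share. In the Ctnnb1 siRNA and vehicle group both shares were lower in replicates 1 and 2 and higher in replicate 3.

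Gene by gene, some libraries showed this opposition and others did not. In replicate 3 of the Ctnnb1 siRNA and dDAVP group, 13 of 13 mitochondrial members and 2 of 79 nuclear members lay above their group mean. In replicate 2 of that group, 1 of 13 and 77 of 79 did. In replicate 1 of the control siRNA and dDAVP group, 10 of 13 and 8 of 79 did, and in its replicate 2, 4 of 13 and 73 of 79. Replicate 1 of the control siRNA and vehicle group had 2 of 13 and 73 of 79. It was not seen in every library: replicate 3 of the control siRNA and vehicle group had 4 of 13 and 10 of 79, and replicate 3 of the Ctnnb1 siRNA and vehicle group 8 of 13 and 57 of 79. The size differed by gene: in replicate 3 of the Ctnnb1 siRNA and dDAVP group COX1 stood at 9865 CPM against 8988 and 9432 in the other libraries of the group, and CYTB, the cytochrome b of complex III, at 411 CPM against 258 and 251. The mitochondrial members of a library share their depth and scaling, so these counts describe libraries and are not repeated evidence.

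Other RNA classes moved with these libraries. Mitochondrial rRNA took 1.52% of reads in replicate 3 of the Ctnnb1 siRNA and dDAVP group, 0.464% in its replicate 2 and 1.27% in replicate 1 of the control siRNA and dDAVP group, against 0.628% to 1.07% in the other 9. Small structural RNAs took 1.61%, 3.07% and 1.67% in those 3 libraries and 1.32% to 2.50% in the other 9. They also differed by group, at 1.32% to 1.94% in control siRNA and vehicle and 2.12% to 2.29% in Ctnnb1 siRNA and vehicle, without overlap. Neither the 2 mitochondrial rRNAs nor any of the 11 tested small structural RNAs was called between groups, and for Ctnnb1 siRNA with vehicle the median of those 11 was 0.48 on the log2 scale with 10 above 0. The part of these classes in the differences between libraries was not tested.

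**Figure D2:**
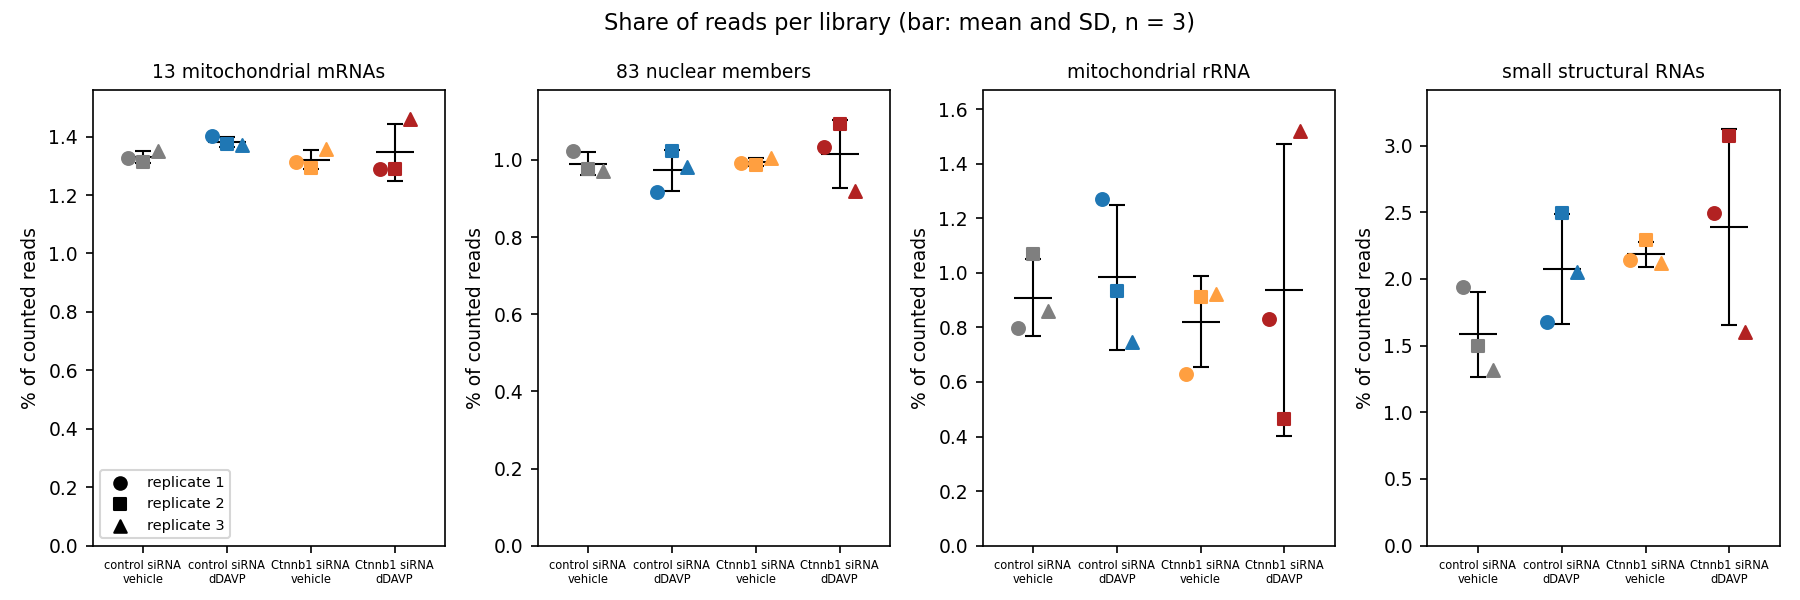
Percent of counted reads per library (y axes) in the 13 mitochondrial mRNAs, the 83 nuclear members, mitochondrial rRNA and small structural RNAs, by group; marker shape gives the replicate and bars the mean and SD of 3 libraries. In the Ctnnb1 siRNA and dDAVP group replicate 3 is highest for both mitochondrial classes and lowest for nuclear members and small structural RNAs, and replicate 2 is the reverse for rRNA, nuclear members and small RNAs.

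**Figure D3:**
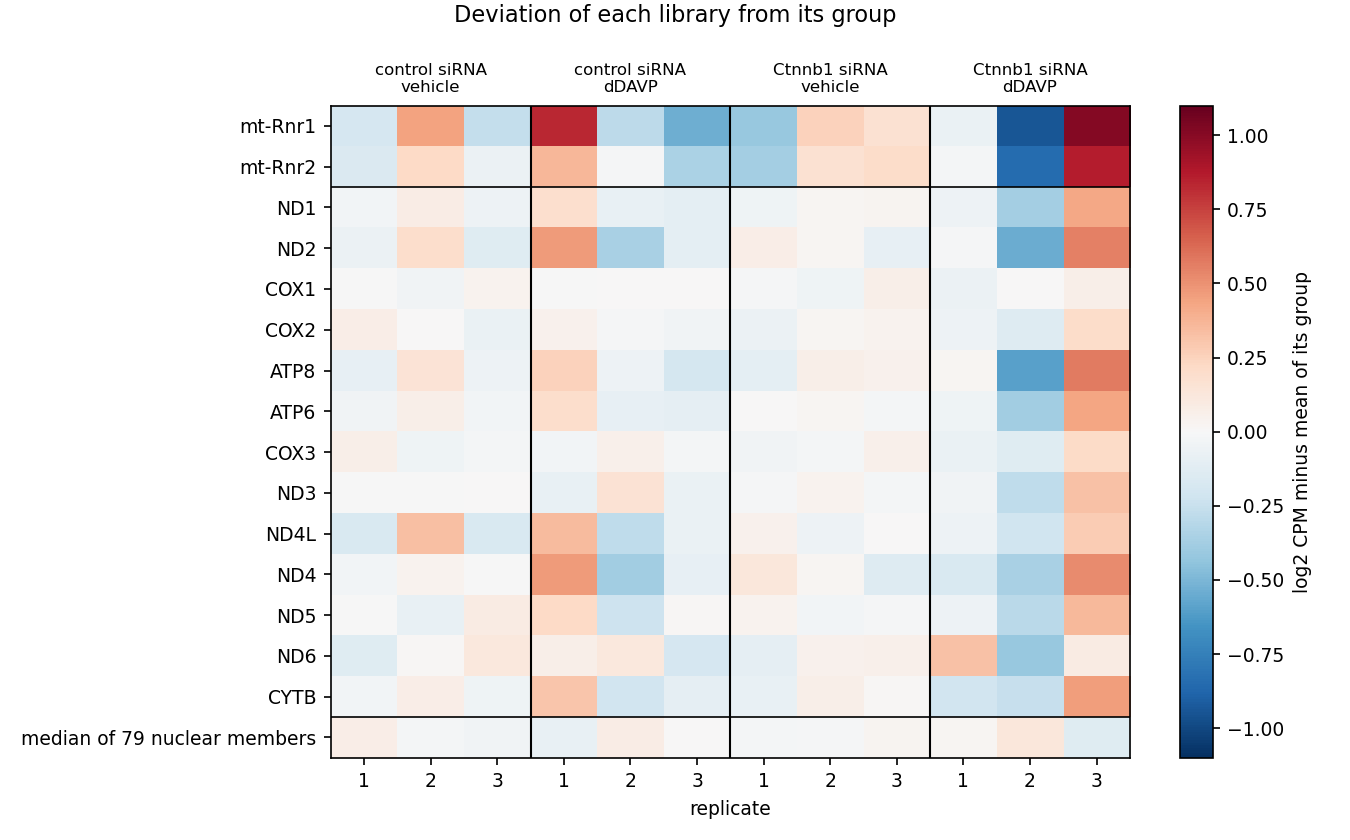
Deviation of each library's log2 CPM from the mean of its group (colour) for the mitochondrial rRNAs and mRNAs in genome order and for the median of the 79 nuclear members. The COX1 row is nearly blank, while ND2, ATP8 and ND4 follow the rRNA rows in replicate 1 of control siRNA with dDAVP and replicates 2 and 3 of Ctnnb1 siRNA with dDAVP, where the nuclear median has the opposite sign.

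As a summary of both genomes, the log2 ratio of mitochondrial to nuclear member reads was taken per library. Its mean was 0.43 ± 0.05 (SD, n = 3) in control siRNA and vehicle, 0.51 ± 0.09 in control siRNA and dDAVP, 0.41 ± 0.02 in Ctnnb1 siRNA and vehicle and 0.41 ± 0.23 in Ctnnb1 siRNA and dDAVP. The difference of means was 0.08 for dDAVP with control siRNA, -0.0001 for dDAVP with Ctnnb1 siRNA, -0.02 for Ctnnb1 siRNA with vehicle and -0.10 for Ctnnb1 siRNA with dDAVP. The ranges of the 2 groups overlapped in each of these comparisons, and each difference was smaller than the pooled within-group SD of 0.13. Without replicate 3 of the Ctnnb1 siRNA and dDAVP group the differences that use that group were -0.13 for dDAVP with Ctnnb1 siRNA and -0.23 for Ctnnb1 siRNA with dDAVP. In bulk RNA a change in the share of cells and a change in RNA per cell cannot be told apart.

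The first comparison asks whether dDAVP acted on the respiratory chain genes with control siRNA. No member passed edgeR's quasi-likelihood test at a Benjamini-Hochberg adjusted p under 0.05, 0 of 79 nuclear and 0 of 13 mitochondrial, where 2.83% of all tested genes did. DESeq2 called 1 nuclear member, limma voom with sample weights 3 nuclear and 1 mitochondrial, and limma on log2(TPM + 1) none. The 2.83% belongs to edgeR. For the other tools the share of all genes called is not given, here or in the comparisons below. At an unadjusted p under 0.05, 2 nuclear members were higher and 3 lower, and 1 mitochondrial member was lower, beside 7.37% of all genes higher and 7.24% lower. The median log2 fold change was -0.01 over nuclear members, 0.22 over mitochondrial members and -0.004 over all genes. By complex, the nuclear estimates above 0 were 12 of 38 in complex I, 0 of 4 in complex II, 4 of 8 in complex III, 6 of 12 in complex IV and 9 of 17 in complex V, and the nuclear members ran from -0.18 to 0.22. The 95% interval lay within 1.5-fold in either direction for 79 of 79 nuclear members and for 5 of 13 mitochondrial members.

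ND6 had the lowest p among mitochondrial members, and it was the only one whose estimate was below 0. Its level was 13.4, 14.8 and 15.9 CPM with vehicle and 11.1, 11.6 and 9.35 CPM with dDAVP. Every dDAVP library lay below every vehicle library, with a log2 fold change of -0.46 (SE 0.15), a fold of 0.725 (95% interval 0.582 to 0.903) and an adjusted p of 0.130. ND5, which faces ND6 on the other strand, stood at 115, 109 and 123 CPM and then at 164, 120.1 and 142, with overlapping groups and a log2 fold change of 0.30 (SE 0.14, adjusted p = 0.383). ND6 passed under 3 of the 22 alternatives: voom with sample weights (adjusted p = 0.0292), a fit to only these 2 groups (0.0287) and a fit without replicate 2 of the Ctnnb1 siRNA and dDAVP group (0.0251).

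The other mitochondrial complex I subunits had estimates above 0. ND1 stood at 265, 286 and 260.4 CPM and then at 386, 320.5 and 315, so that the groups did not overlap, with a log2 fold change of 0.33 (SE 0.16, adjusted p = 0.374, or 0.0364 in the fit to these 2 groups and 0.0474 without replicate 3 of the Ctnnb1 siRNA and dDAVP group). ND2 stood at 24.1, 28.9 and 23.0 and then at 47.8, 26.9 and 32.0 CPM, with the highest estimate of 0.49 (SE 0.27, adjusted p = 0.471) and overlapping groups. For ND4, at 68.4, 71.7 and 69.6 and then 127, 70.6 and 86.4 CPM, only replicate 1 was far above vehicle. ND4L gave 0.38 (SE 0.20, adjusted p = 0.412) from levels of 2.08 to 3.84 CPM, and ND3 gave 0.21 (SE 0.11, adjusted p = 0.443) from 100.1, 100.3 and 101 CPM to 109, 129 and 110.2. The replicate 1 that was highest for ND1, ND2, ND4, ND4L and ND5 is the library with the most mitochondrial rRNA in its group.

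The mitochondrial subunits of complexes III, IV and V gave estimates of 0.25 or less. CYTB had a log2 fold change of 0.25 (SE 0.19), ATP6 of 0.22 (SE 0.16) and ATP8 of 0.21 (SE 0.24). COX1 stood at 9187, 8967 and 9430.0 CPM and then at 9495, 9557 and 9577. Its groups did not overlap, yet the difference of 0.05 (SE 0.05) did not pass, and its interval ran from 0.961 to 1.12-fold. COX2 gave 0.12 (SE 0.07) and COX3 0.01 (SE 0.07).

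Among nuclear members the lowest p belonged to Ndufa12, an accessory subunit of complex I at chr10:94199035-94221440. Its level was 88.8, 80.4 and 82.0 CPM with vehicle and 92.7, 99.3 and 101 CPM with dDAVP. The groups did not overlap, and the log2 fold change was 0.22 (SE 0.07; adjusted p = 0.116). Atp5g1, the c-ring gene at chr11:96072793-96075694, stood at 107, 97.6 and 98.8 and then at 104, 128 and 119 CPM, with overlapping groups and an estimate of 0.21 (SE 0.09, adjusted p = 0.271). Cox7a2l, the supercomplex factor at chr17:83501917-83514333, stood at 187, 179.6 and 181 CPM with vehicle and lower, at 154, 168 and 165, with dDAVP, an estimate of -0.17 (SE 0.05, adjusted p = 0.116). Sdhc, a membrane anchor of complex II at chr1:171129157-171150640, stood at 91.1, 88.5 and 81.2 and then at 73.2, 83.1 and 76.9 CPM, with overlapping groups and an estimate of -0.16 (SE 0.06, adjusted p = 0.227). Ndufa12 passed with DESeq2 (adjusted p = 0.0434), with voom (0.00660), in the fit to these 2 groups (0.0327) and without replicate 3 of the Ctnnb1 siRNA and dDAVP group (0.0179). Cox7a2l and Atp5g1 passed with voom only (0.0327 and 0.0399).

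**Figure D4:**
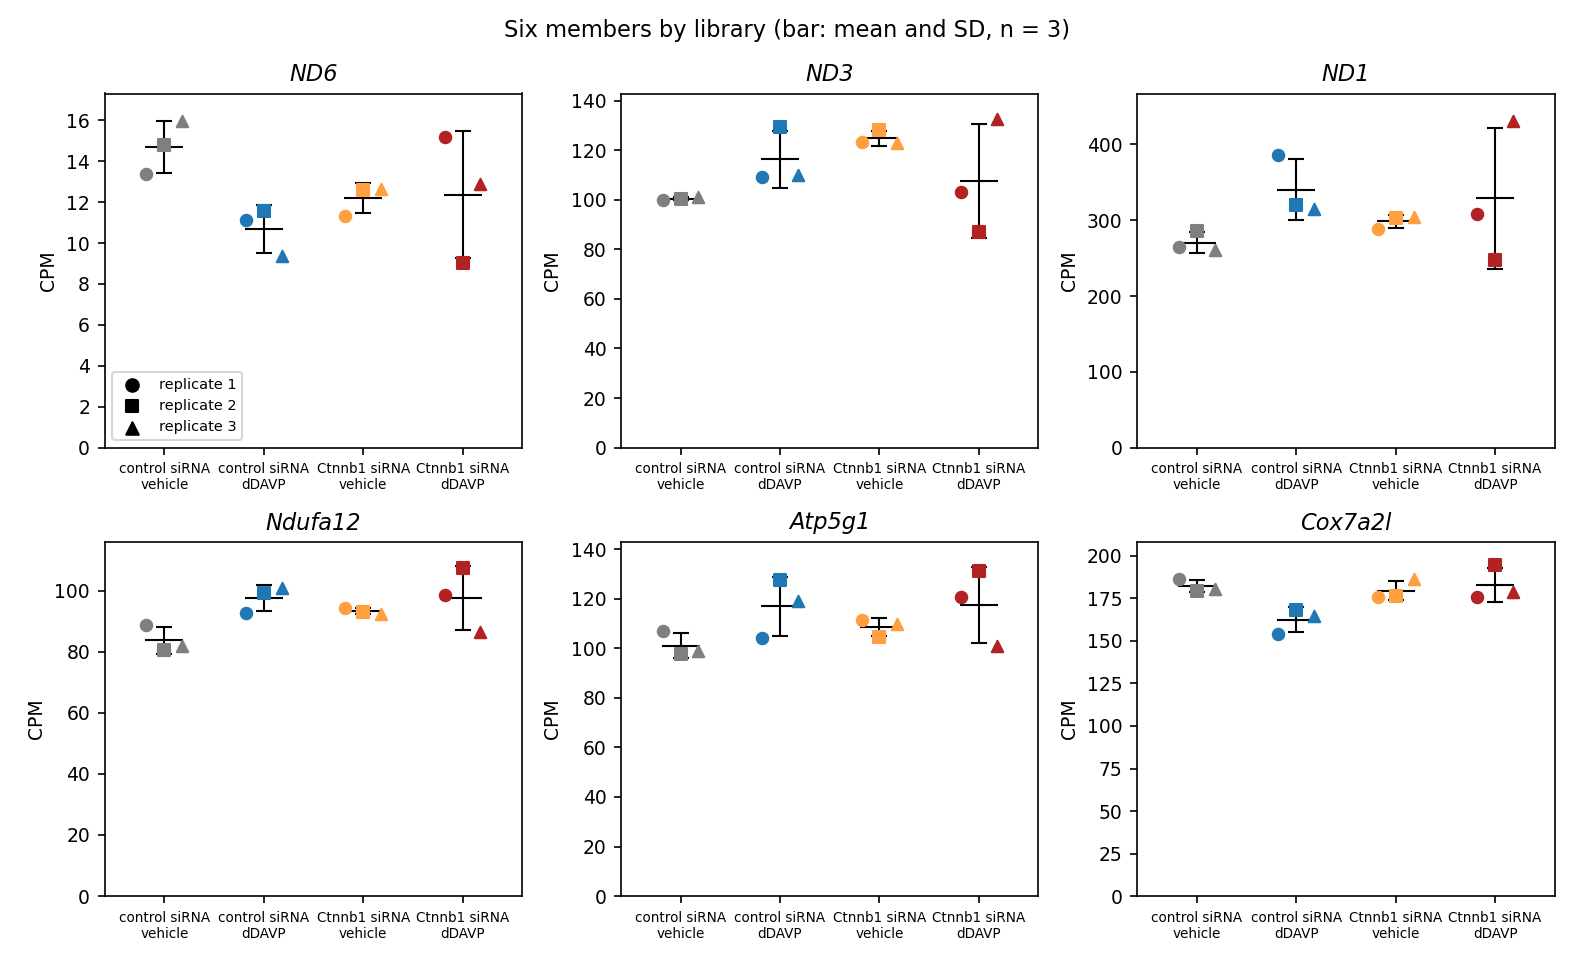
CPM of 3 mitochondrial (top) and 3 nuclear members (bottom) in each library by group; marker shape gives the replicate, and bars the mean and SD of 3 libraries. With control siRNA the 3 dDAVP libraries lie below the vehicle libraries for ND6 and Cox7a2l and above them for ND3, ND1 and Ndufa12; replicates 2 and 3 of Ctnnb1 siRNA with dDAVP lie on opposite sides of their group mean for ND6, ND3, ND1, Ndufa12, Atp5g1 and Cox7a2l.

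The second comparison gives the dDAVP difference with Ctnnb1 siRNA. edgeR again called 0 of 79 nuclear and 0 of 13 mitochondrial members, where it called 2.78% of all genes. DESeq2 called 1 nuclear member, voom 1 mitochondrial member and limma on log2(TPM + 1) none. An unadjusted p under 0.05 was reached by 7 higher and 0 lower nuclear members and by no mitochondrial member, beside 7.74% and 5.91% of all genes. Estimates were above 0 for 72 of 79 nuclear members, with a median of 0.07 against -0.005 over all genes. With the other scalings of the counts 71 or 72 of 79 were above 0. With log2(TPM + 1), where the median over all genes was lower at -0.05, the nuclear median was 0.002, or 0.05 above that of all genes. Without replicate 2 of the Ctnnb1 siRNA and dDAVP group 42 of 79 were above 0, with a median of 0.01. Without replicate 3 it was 78 of 79, with a median of 0.14. Summed nuclear members stood at 10436.5, 11113.3 and 9434.9 CPM in replicates 1 to 3 of that group. With Ctnnb1 siRNA and vehicle they stood at 9768.8, 9813.7 and 10097.7 CPM. Replicates 1 and 2 thus lay above every vehicle library and replicate 3 below.

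Cox5a, a nuclear subunit of complex IV, had the lowest p. It stood at 68.5, 64.0 and 66.2 CPM with vehicle and 71.7, 77.1 and 72.7 CPM with dDAVP. All dDAVP values were above all vehicle values, with an estimate of 0.16 (SE 0.05) and an adjusted p of 0.112, or 0.0474 with DESeq2. Atp5c1, the γ shaft of the ATP synthase motor, stood at 241, 244 and 256 and then at 265, 296 and 267 CPM, also without overlap, with an estimate of 0.16 (SE 0.06, adjusted p = 0.178). Sdhc and Ndufc1, a small complex I subunit, had the lowest p among estimates below 0, at -0.07 (SE 0.06) and -0.08 (SE 0.09). Over the 22 alternatives Sdhc ran from -0.12 to -0.02 and Ndufc1 from -0.18 to 0.02, so the sign of Ndufc1 was not stable. For Ndufc1 the dDAVP libraries stood at 44.3, 49.4 and 37.2 CPM, on both sides of 46.3, 46.7 and 45.3 with vehicle.

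Mitochondrial members had a median of 0.05, with 10 of 13 above 0, and the sign turned with 1 library. Without replicate 3 the median was -0.10 with 4 of 13 above 0, and without replicate 2 it was 0.18 with 12 of 13. ND6 was at 11.3, 12.6 and 12.6 CPM with vehicle and at 15.2, 9.03 and 12.9 CPM with dDAVP, an estimate of 0.02 (SE 0.15). ND3 was at 124, 128 and 123 CPM and then at 103, 87.0 and 132, an estimate of -0.22 (SE 0.11, adjusted p = 0.459). Replicates 1 and 2 lay below vehicle for ND3 and replicate 3 above it. Without replicate 3 the ND3 difference was -0.39 with an adjusted p of 0.00893, and with voom, which gives weights to libraries, it was -0.32 with 0.0331. CYTB had the highest estimate at 0.28 (SE 0.19, adjusted p = 0.580), where replicate 3 stood at 411 CPM and replicates 1 and 2 at 258 and 251, against 239 to 264 with vehicle.

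**Figure D5:**
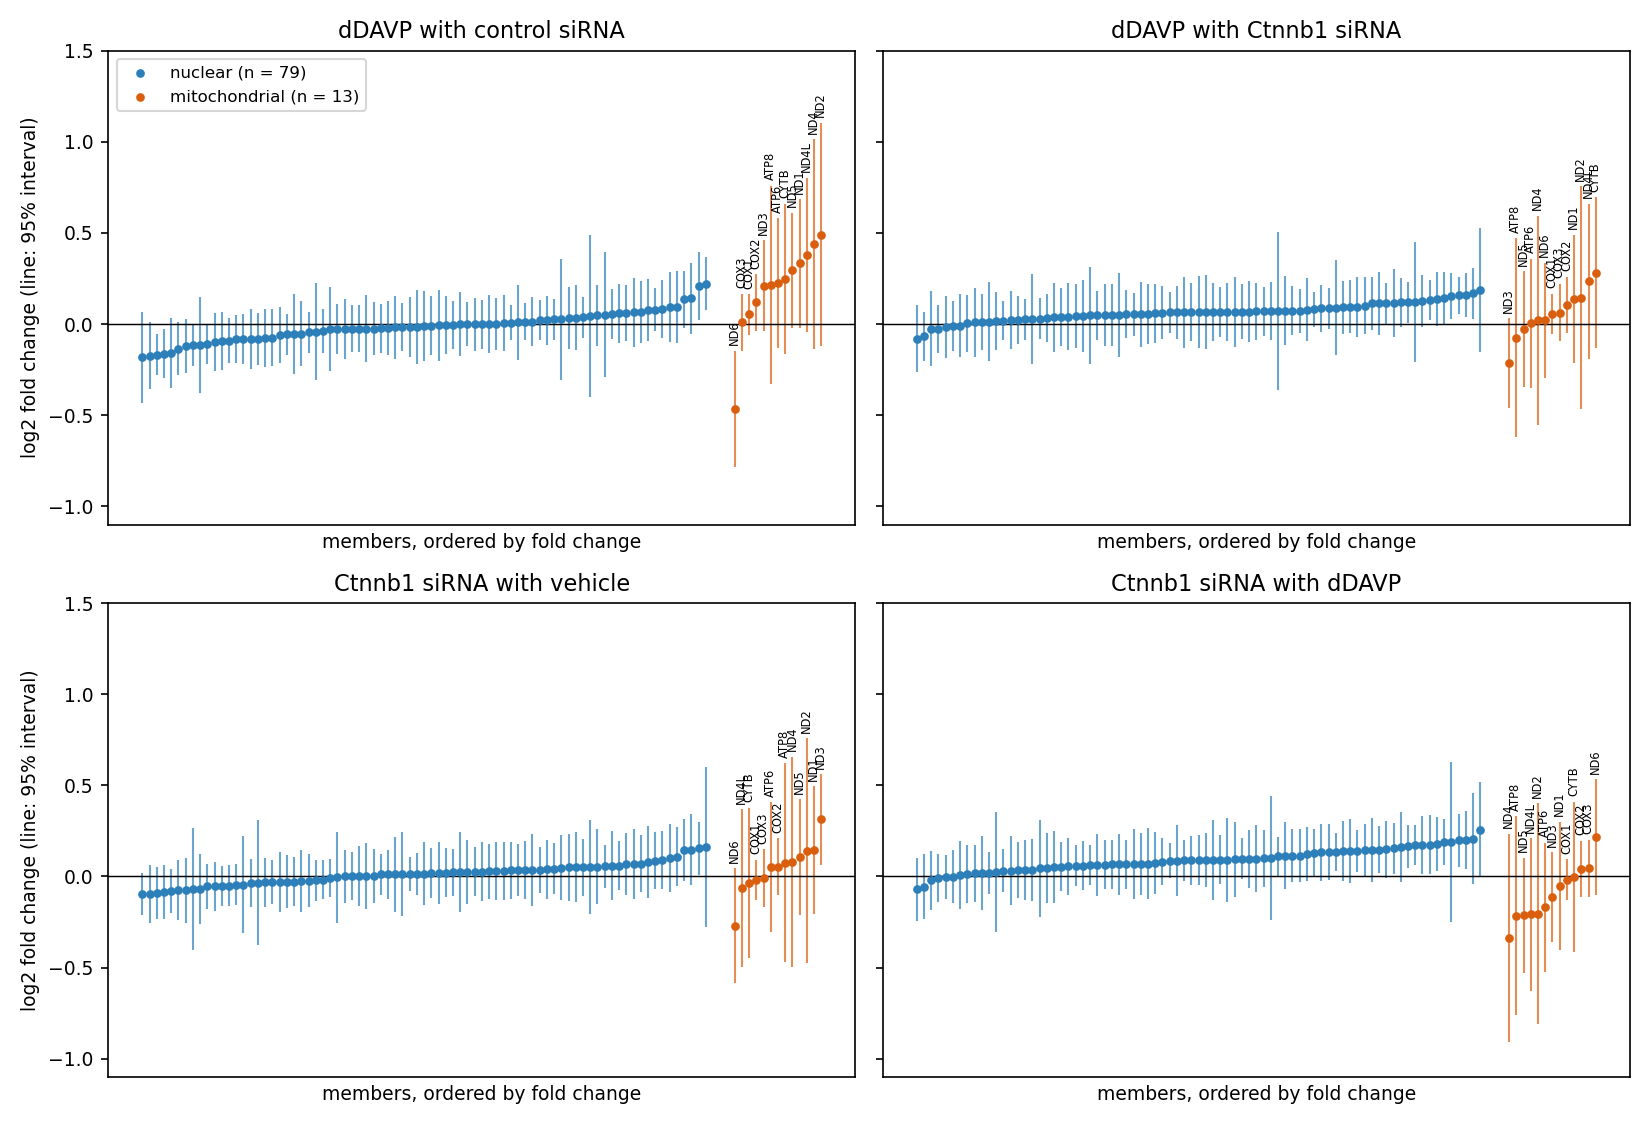
Log2 fold change (points) with 95% interval (lines) of the 79 nuclear (blue) and 13 mitochondrial (orange) members that passed the filter, ordered by value, in the 4 pairwise comparisons. Nuclear intervals are narrow and most cross 0, mitochondrial intervals are wider apart from COX1, COX2 and COX3, and the nuclear points lie mostly above 0 in both panels that use the Ctnnb1 siRNA and dDAVP group.

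The next comparison sets Ctnnb1 siRNA against control siRNA with vehicle. edgeR called 0 of 79 nuclear and 0 of 13 mitochondrial members, against 0.43% of all genes. DESeq2 and limma on log2(TPM + 1) called none and voom 1 mitochondrial member. Without adjustment, 1 nuclear and 1 mitochondrial member were higher and none lower at p under 0.05, beside 4.17% and 3.92% of all genes. Nuclear estimates had a median of 0.01 with 51 of 79 above 0, or 11 of 79 with log2(TPM + 1), where the median over all genes was also lower at -0.07. The interval lay within 1.5-fold for 78 of 79 nuclear members and 9 of 13 mitochondrial members.

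ND3 was the mitochondrial member at an unadjusted p under 0.05. It stood at 100.1, 100.3 and 101 CPM with control siRNA and at 124, 128 and 123 CPM with Ctnnb1 siRNA. The 3 values of each group lay close together and did not overlap between groups, for a fold of 1.24 (95% interval 1.05 to 1.48), a log2 fold change of 0.31 (SE 0.11) and an adjusted p of 0.449. The fit over all libraries shares a spread that includes 87.0 and 132 CPM in the Ctnnb1 siRNA and dDAVP group. The fit to only the 2 groups gave the same fold change with an adjusted p of 0.000800, the fit without replicate 3 of that group gave 0.0353, and voom gave 0.0370. Nuclear transcripts nearly identical to ND3 exist, as given above. ND6 stood lower with Ctnnb1 siRNA, at 11.3, 12.6 and 12.6 against 13.4, 14.8 and 15.9 CPM, without overlap, an estimate of -0.27 (SE 0.15, adjusted p = 0.710).

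Ndufa12 was the nuclear member at an unadjusted p under 0.05, at 94.3, 92.9 and 92.4 CPM with Ctnnb1 siRNA, all above the 80.4 to 88.8 CPM of the control siRNA (estimate 0.15, SE 0.07, adjusted p = 0.585). Ndufs8, an iron-sulphur subunit of complex I, stood at 88.2, 73.4 and 76.0 and then at 90.3, 84.4 and 88.6 CPM (0.15, SE 0.08, adjusted p = 0.708). Below 0, Sdhd, the other membrane anchor of complex II, stood at 119, 113 and 112 and then at 104, 109 and 109 CPM (-0.10, SE 0.05, adjusted p = 0.718). Sdha, the flavoprotein of complex II, stood at 156, 157 and 148 and then at 133, 148 and 155 CPM (-0.08, SE 0.06, adjusted p = 0.817). All 4 complex II estimates were below 0, from -0.10 to -0.03.

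With dDAVP, the same siRNAs were compared again. edgeR called 0 of 79 nuclear and 0 of 13 mitochondrial members, against 0.267% of all genes. DESeq2 and limma on log2(TPM + 1) called none and voom 1 nuclear member. At an unadjusted p under 0.05, 14 of 79 nuclear members were higher and 0 lower, where 6.13% of all genes were higher and 5.53% lower. Estimates were above 0 for 73 of 79 nuclear members, with a median of 0.09 against 0.001 over all genes, and for 3 of 13 mitochondrial members, with a median of -0.11. The median nuclear estimate was 0.09 for complex I, 0.07 for complex II, 0.09 for complex III, 0.14 for complex IV and 0.07 for complex V, and the share of all genes above 0 was 50.4%. The nuclear estimates above 0 were 49 of 79, with a median of 0.02, without replicate 2 of the Ctnnb1 siRNA and dDAVP group. Without replicate 3 they were 78 of 79, with a median of 0.16 and 45 of 79 at an unadjusted p under 0.05, beside 20% of all genes at that threshold in the same fit. Across the 22 alternatives the nuclear estimates above 0 went down to 42 of 79 and the nuclear median to 0.004. With log2(TPM + 1) the median over all genes was itself lower in this comparison, at -0.07. The mitochondrial median was -0.29 without replicate 3 and 0.02 without replicate 2.

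Cox7a2l and Uqcrh had the lowest p above 0. Cox7a2l stood at 154, 168 and 165 CPM with control siRNA and 176, 194 and 179 CPM with Ctnnb1 siRNA, without overlap (0.17, SE 0.05, adjusted p = 0.198). Uqcrh stood at 84.7, 91.3 and 85.5 and then at 98.9, 106 and 92.5 CPM, also without overlap (0.19, SE 0.06, adjusted p = 0.211, or 0.0441 with voom). Below 0 were Ndufv2, an iron-sulphur subunit of complex I, at -0.07 (SE 0.08), and Uqcrc1, a core protein of complex III, at -0.06 (SE 0.08), with overlapping groups for both. Over the 22 alternatives Ndufv2 ran from -0.16 to 0.03 and Uqcrc1 from -0.15 to 0.05, so neither sign was stable. Uqcrc1 stood at 106, 123 and 115 CPM with control siRNA and at 122, 114 and 93.9 CPM with Ctnnb1 siRNA. Without replicate 3, 2 other complex I symbols passed, Ndufb7 (0.26, adjusted p = 0.0376) and Ndufa4 (0.24, adjusted p = 0.0474), named after their values were seen. In that replicate they stood at 70.3 and 155 CPM, against 89.6 and 93.1 and against 184 and 198 CPM in replicates 1 and 2. The share of all genes called in the fit without replicate 3 is not given.

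Whether the dDAVP difference depended on the siRNA was tested by the interaction. edgeR called no member and no other gene, 0% of 16508, and voom, DESeq2 and limma on TPM called no member. At an unadjusted p under 0.05, 6 nuclear members were higher and 0 lower, and 1 mitochondrial member was higher and 1 lower, beside 2.66% and 2.36% of all genes. The mitochondrial pair was ND6, at 0.49 (SE 0.21), and ND3, at -0.43 (SE 0.16), each with an adjusted p of 0.918. Leaving out replicate 3 of the Ctnnb1 siRNA and dDAVP group gave 0.46 for ND6 and -0.60 for ND3, and leaving out replicate 2 gave 0.66 and -0.30. Nuclear estimates above 0 numbered 67 of 79 with all libraries, 75 without that replicate 3 and 45 without that replicate 2, and the mitochondrial median was -0.19, -0.44 and -0.04 in the same order. Sdhd at 0.24 (SE 0.08) and Uqcrh at 0.24 (SE 0.08) had the lowest p of nuclear members above 0, and Ndufa12 at -0.16 (SE 0.10) and Atp5g1 at -0.09 (SE 0.12) of those below. The Ndufa12 and Atp5g1 values were -0.08 and 0.006 without replicate 3, and -0.24 and -0.18 without replicate 2. For Sdhd the dDAVP libraries stood at 102, 113 and 103 CPM with control siRNA, overlapping the 112 to 119 CPM of vehicle, and at 119, 119.7 and 112 CPM with Ctnnb1 siRNA, above all 3 vehicle values of 104, 109 and 109 CPM. The design had little room here: the interval lay within 1.5-fold for 77 of 79 nuclear members but for 3 of 13 mitochondrial ones, which were COX1, COX2 and COX3.

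Averaged over both siRNAs, dDAVP gave 0 called members of 79 and of 13 with edgeR, where 6.86% of all genes passed. DESeq2 called none, voom 2 nuclear members and limma on log2(TPM + 1) 1. At an unadjusted p under 0.05 there were 5 nuclear and 2 mitochondrial members (COX2 and ND4L, both higher), against 19.1% of all genes. Ndufa12 had the lowest p with an estimate of 0.14 (SE 0.05, adjusted p = 0.100) and Atp5g1 the next above 0 with 0.16 (SE 0.06, adjusted p = 0.151). Sdhc stood at -0.11 (SE 0.04, adjusted p = 0.158) and Ndufc1 at -0.13 (SE 0.06, adjusted p = 0.273). All 79 nuclear intervals lay within 1.5-fold. Without replicate 3 of the Ctnnb1 siRNA and dDAVP group 5 of 79 nuclear members passed, all above 0: Ndufa12, Atp5g1, Cox6a1, Ndufa7 and Cox5b. The share of all genes in that fit is not given, beside 6.86% with all libraries, so the count is not a result about the members. Without replicate 2 of that group ND1 passed, at 0.32 with an adjusted p of 0.0345, against 0.24 (SE 0.11, adjusted p = 0.290) with all libraries.

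Averaged over vehicle and dDAVP, Ctnnb1 siRNA also gave 0 called members of 79 and of 13 with edgeR, against 1.85% of all genes. DESeq2 and limma on log2(TPM + 1) called none and voom 2 nuclear members. At an unadjusted p under 0.05 there were 5 nuclear members and no mitochondrial one, against 13.2% of all genes. Cox8a and Atp5k, both shown with their promoter windows, had the lowest p above 0. Cox8a stood at 187, 156 and 159 and 164, 165 and 170.3 CPM with control siRNA, and at 185, 179.7 and 177 and 195, 205 and 165 CPM with Ctnnb1 siRNA, vehicle first in each (0.14, SE 0.05, adjusted p = 0.252). Atp5k gave 0.12 (SE 0.05, adjusted p = 0.346). Uqcrc1 at -0.07 and Sdha at -0.04 had the lowest p below 0. Without replicate 3 of the Ctnnb1 siRNA and dDAVP group Cox8a, Ndufb7 and Cox5b passed, with estimates from 0.15 to 0.18. The share of all genes called in that fit is not given.

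Lists of genes that build or serve the respiratory chain were read from the same fit, to be set against the 0.267% to 2.83% of all genes called in the pairwise comparisons and the 6.86% called for the average dDAVP effect. The fit tested 15 assembly factors of complex I, 10 of complexes II and III, 19 of complex IV and 4 of complex V. Cox17, the copper chaperone of complex IV, was the only one of them called in a pairwise comparison. It stood at 27.7, 28.6 and 30.9 CPM in Ctnnb1 siRNA and vehicle and rose to 35.6, 35.6 and 36.5 CPM with dDAVP, a log2 fold change of 0.30 (SE 0.08, adjusted p = 0.0478). The call was lost in 9 of the 12 fits that each left out 1 library, with adjusted p up to 0.216. In the average over both siRNAs, dDAVP raised Sdhaf1, an assembly factor of complex II, by 0.32 on the log2 scale (SE 0.07, adjusted p = 0.0156) and Coa3, an assembly factor of complex IV, by 0.20 (SE 0.04, adjusted p = 0.0126). Sdhaf3, another complex II factor, fell by 0.32 (SE 0.09, adjusted p = 0.0351), a call lost in 9 of those 12 fits, while Sdhaf1 and Coa3 stayed called in all 12.

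Coq10b, a coenzyme Q-binding protein, was the clearest difference among the neighbours of the chain. It stood at 33.0, 33.9 and 34.0 CPM in control siRNA and vehicle. With dDAVP it rose to 39.4, 43.8 and 44.4 CPM, a log2 fold change of 0.34 (SE 0.06, adjusted p = 0.00488). With Ctnnb1 siRNA and vehicle it also stood higher than with control siRNA, at 39.8, 42.1 and 42.6 CPM (0.30, SE 0.06, adjusted p = 0.0391), and with both at 48.5, 44.9 and 48.0 CPM. The dDAVP call stood in all 12 fits without 1 library, and that of Ctnnb1 siRNA was lost in 8 of them. Neither was called with limma on log2(TPM + 1) (adjusted p = 0.108 and 0.320). As averages, the dDAVP difference was 0.26 (SE 0.04, adjusted p = 0.000977) and the Ctnnb1 siRNA difference 0.23 (SE 0.04, adjusted p = 0.0105). Both averages stayed called in all 12 fits without 1 library, and neither passed with limma on log2(TPM + 1) (adjusted p = 0.0586 and 0.234). Coq10b was 1 of 18 tested genes of electron carriers and coenzyme Q synthesis, and none of the others was called in these comparisons.

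Of 29 tested genes of mitochondrial transcription, RNA stability and DNA replication, none was called in any of the 7 comparisons. Of 18 regulators of mitochondrial biogenesis none was called in a pairwise comparison, and in the average over both siRNAs dDAVP raised Prkaa2, a catalytic subunit of AMP-activated kinase, by 0.45 (SE 0.10, adjusted p = 0.0103) while Sirt3, a mitochondrial deacetylase, fell by 0.28 (SE 0.07, adjusted p = 0.0292), a call lost in 6 of the 12 fits without 1 library. Ppargc1a, the gene of PGC-1α, was low at 2.08 to 4.57 CPM and not called, with an estimate of -0.33 (SE 0.27) for dDAVP with control siRNA. The 78 mitochondrial ribosomal proteins had estimates above 0 for 35 with dDAVP and control siRNA (median -0.02) and 69 with dDAVP and Ctnnb1 siRNA (median 0.08), with 0 called in both, and for 39 and 70 with Ctnnb1 siRNA under vehicle and dDAVP, with 0 called. The 69 and 70 became 50 and 49 without replicate 2 of the Ctnnb1 siRNA and dDAVP group and 75 and 75 without its replicate 3. In the average over both siRNAs dDAVP raised Mrps6 by 0.41 (adjusted p = 0.0104) and Mrps28 by 0.27 (adjusted p = 0.0465, lost in 10 of the 12 fits without 1 library). Of 20 citric acid cycle genes, Pdha1 rose by 0.12 and Pdk1 fell by 0.16 in the average over both siRNAs with dDAVP (adjusted p = 0.0479 and 0.0315), calls lost in 10 and 6 of those fits. The mitochondrial phosphate carrier Slc25a3 and the adenine nucleotide carrier Slc25a5, which feed the ATP synthase, rose by 0.12 (SE 0.03, adjusted p = 0.0226) and 0.18 (SE 0.04, adjusted p = 0.00675) in the same average, with the Slc25a3 call lost in 4 of those fits. With limma on log2(TPM + 1) Coa3, Prkaa2, Mrps6 and Slc25a5 did not pass either (adjusted p = 0.0680, 0.118, 0.0835 and 0.111).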

How the data were processed

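RNA of 12 libraries of mpkCCDc11 cells was sequenced from strand-specific total RNA libraries depleted of ribosomal RNA, per the labels' protocols. FastQC, Trimmomatic, HISAT2, StringTie and DESeq2 and the build GRCm38 (mm10) are named in the submitters' processing notes, without versions, and whether counting used the strand is not given in the sources used here. The deposited table holds whole-number read counts and TPM values made by the authors, 1 column of each per library, per the file headers.

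Counts were analysed here in R 4.3.3 with edgeR 4.0.16: filterByExpr on the group, TMM scaling, 1 coefficient per group over all 12 libraries, robust quasi-likelihood testing, and p-values adjusted by Benjamini-Hochberg over the 16508 tested genes, called at an adjusted p under 0.05. The common biological coefficient of variation was 8.26%. Unless another tool is named, p-values are from edgeR. CPM values are TMM-scaled. DESeq2 1.42.0 and limma 3.58.1 served as alternatives. The script was tested on simulated data. Deviations of libraries used log2 CPM with a prior count of 2. Genome copies were searched with blastn 2.17.0. Symbols of all 96 members were found in the RefSeq annotation of GRCm38.

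Members and gene lists were chosen with earlier results of these data known. All mitochondrial members were named. In each comparison up to 8 called nuclear members per direction by smallest p were to be named, and, where fewer than 3 were called, the 2 members per direction of lowest p, given as not called. The highest and lowest member of each complex, the isoform sets and called genes of the pathway lists were also named. No test was made of scores over members.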

Additional observations from a re-analysis of the deposited data

How the results depend on the processing

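Alternatives were other scalings (DESeq2 size factors, upper quartile, mitochondrial genes left out of the scaling), filters, tools, the fit to only the groups compared, a replicate block and each library left out. The alternative scalings, both filters and the replicate block called 0 members in all 7 comparisons, as edgeR did. DESeq2 called 1 nuclear member for dDAVP with control siRNA (Ndufa12) and 1 with Ctnnb1 siRNA (Cox5a). limma on log2(TPM + 1) called 1 nuclear member in the average dDAVP effect (Sdhc, lower). Voom with sample weights called 3 nuclear and 1 mitochondrial members for dDAVP with control siRNA, 1 mitochondrial for dDAVP with Ctnnb1 siRNA (ND3), 1 mitochondrial for Ctnnb1 siRNA with vehicle (ND3), 1 nuclear for Ctnnb1 siRNA with dDAVP (Uqcrh), 2 nuclear in the average dDAVP effect and 2 nuclear in the average siRNA effect (Cox8a and Atp5g2). The fit to only the 2 groups called 1 nuclear and 2 mitochondrial members (ND6 lower, ND1 higher) for dDAVP with control siRNA and 1 mitochondrial member (ND3) for Ctnnb1 siRNA with vehicle. In all, 16 members were called in at least 1 alternative, and the cause of these changes was not tested. Shares of all genes called in the alternatives are not given, so these counts cannot be read as a response of the members.

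Leaving out 1 library in turn gave 0 to 1 nuclear and 0 to 1 mitochondrial calls for dDAVP with control siRNA, 0 to 1 mitochondrial for dDAVP with Ctnnb1 siRNA, 0 to 1 mitochondrial for Ctnnb1 siRNA with vehicle, 0 to 2 nuclear for Ctnnb1 siRNA with dDAVP, 0 to 5 nuclear and 0 to 1 mitochondrial in the average dDAVP effect and 0 to 3 nuclear in the average siRNA effect. The fits that added calls left out replicate 2 or 3 of the Ctnnb1 siRNA and dDAVP group. The difference in the log2 ratio of mitochondrial to nuclear reads ranged from -0.13 to 0.084 for dDAVP with Ctnnb1 siRNA, from -0.23 to -0.0154 for Ctnnb1 siRNA with dDAVP and from -0.21 to 0.0027 for the interaction, with the lowest value in each case without replicate 3 of that group. None of the 119 named member results passed in the edgeR fit, so no call could be lost. Of their 2567 alternative values 26 passed, and 131 that did not pass had another sign.

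The labels do not say whether equal replicate numbers pair the libraries. Same-numbered deviations correlated at -0.21, -0.07 and 0.10 for dDAVP with control siRNA. For Ctnnb1 siRNA with dDAVP 1 same-numbered value was 0.37, and unlike numbers gave values from -0.52 to 0.49. These correlations cannot decide the question. With the replicate block 0 of 79 nuclear and 0 of 13 mitochondrial members were called for dDAVP with control siRNA. Depth limited ND4L, at 2.08 to 3.84 CPM, and the 4 members below the filter.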

Other observations

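A tRNA gene lies against the most abundant member. TrnS1, the mitochondrial serine tRNA on the strand opposite to COX1, overlaps the last 3 bases of COX1. The reads counted in its row amounted to 1.52% to 1.82% of those counted for COX1 in the 12 libraries. The sources used here do not state a strand setting for the counting, so reads of the tRNA and of COX1 cannot be told apart in these rows.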
